A study of Mus musculus with 6 samples.

Results

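The Ly6 genes described here are the 8 rows of the deposited count table named Ly6a, Ly6c1, Ly6c2, Ly6d, Ly6e, Ly6g, Ly6i and Ly6k, out of 54532 genes, which lie together on mouse chromosome 15. They were taken by name, and the family was chosen from fold changes of the same comparison that is described here, so its own values are given as a description with no test. RNA was sequenced from GOT1-/- Th17 cells and from wild-type (WT) Th17 cells, with 3 libraries per genotype. GOT1 is the cytosolic aspartate transaminase, and the GOT1-/- mice lack it in T cells. The sources used here do not give the promoter that drives the deletion. Both genotypes shared the C57BL/6 background, an age of 6 to 10 weeks (animals of both sexes were used), sorted naive CD4+ T cells as the starting population and the same culture. That culture combined plate-bound anti-CD3 at 5 µg/ml and soluble anti-CD28 at 2 µg/ml with 2.5 ng/ml TGFβ and 10 ng/ml of each of the cytokines IL-1β, IL-6 and IL-23. It also held 2 µg/ml of each of anti-IFNγ and anti-IL-4, was topped up on day 2, and was harvested for RNA on day 4. No label says whether replicates came from separate animals, so errors and p-values cover only how far these libraries differ, and that spread may be technical.

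Ly6 proteins are small, cysteine-rich proteins held on the outer cell surface by a glycosylphosphatidylinositol (GPI) lipid anchor. Immunologists use several of them as surface markers: Ly6A, also called Sca-1, for blood stem cells and activated T cells, Ly6C for monocytes and for subsets of effector and memory T cells, and Ly6G for neutrophils. Several members, Ly6a and Ly6e among them, are known as interferon-induced genes. The family arose by gene duplication, so its members resemble one another in sequence, and short reads from one member can also match another.

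The members spanned 397071 bases of chromosome 15 on build GRCm38. In order along the chromosome they were Ly6d (74762056 to 74763620, minus strand), Ly6k (74796874 to 74799986, minus), Ly6e (74955051 to 74959905, plus), Ly6i (74979534 to 74983430, minus), Ly6a (74994877 to 74998031, minus), Ly6c1 (75044018 to 75048830, minus), Ly6c2 (75108158 to 75111970, minus) and Ly6g (75155240 to 75159126, plus). These are whole-gene coordinates from the deposited table, and all 8 were the same in GENCODE M21. The first 120 bases of the coding sequences of the 5 most alike members are printed because they show how far reads can tell these genes apart. Capitals mark bases that differ from Ly6c1.
Ly6c1: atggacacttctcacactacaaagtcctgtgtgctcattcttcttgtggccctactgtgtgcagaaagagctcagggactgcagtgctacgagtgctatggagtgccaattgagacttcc
Ly6c2: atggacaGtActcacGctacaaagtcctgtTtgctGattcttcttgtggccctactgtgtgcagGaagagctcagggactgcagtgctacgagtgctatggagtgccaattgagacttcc
Ly6a: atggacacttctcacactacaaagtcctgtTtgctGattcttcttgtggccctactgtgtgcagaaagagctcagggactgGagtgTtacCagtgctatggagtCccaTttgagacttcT
Ly6i: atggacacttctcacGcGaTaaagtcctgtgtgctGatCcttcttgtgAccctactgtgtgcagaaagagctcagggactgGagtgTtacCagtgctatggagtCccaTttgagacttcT
Ly6g: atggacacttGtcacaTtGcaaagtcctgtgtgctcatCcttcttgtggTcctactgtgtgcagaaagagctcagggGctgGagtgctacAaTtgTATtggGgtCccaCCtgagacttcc
In this stretch Ly6g differed from Ly6c1 at 16 bases, Ly6i at 12, Ly6a at 8 and Ly6c2 at 6. Over the whole coding sequence Ly6c1 and Ly6c2 differed at 9 of 396 bases, an identity of 97.7%. Ly6a and Ly6i were 86.4% identical, Ly6a and Ly6g 83.2%, and Ly6c1 and Ly6g 79.8%. Ly6e, Ly6d and Ly6k reached at most 53% with any other member.

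**Figure D1:**
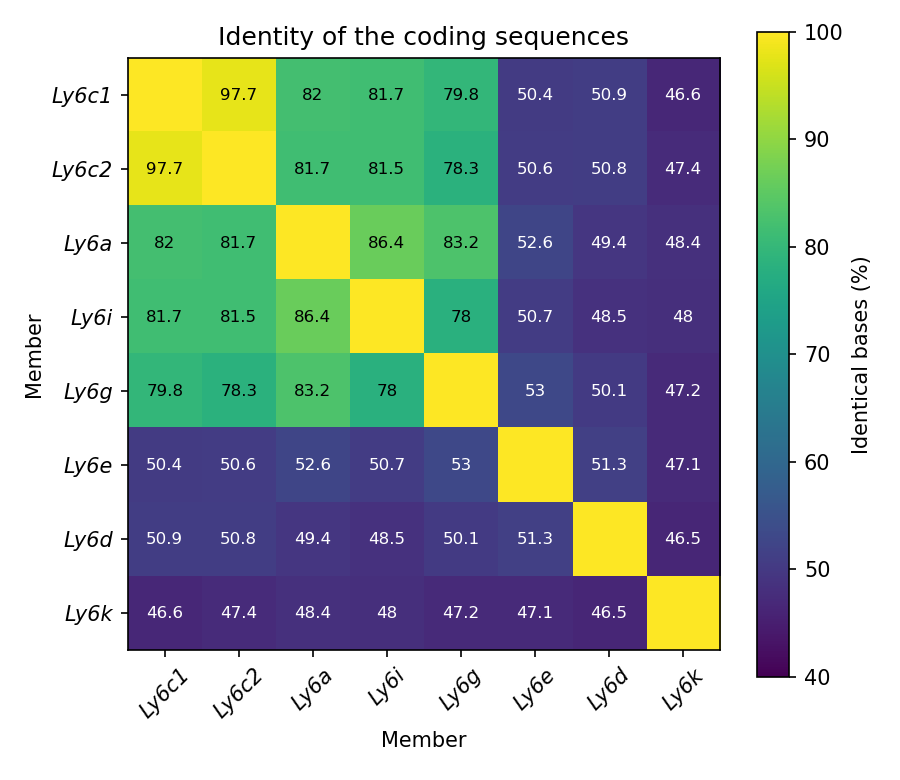
Percent of identical bases between the coding sequences of each pair of members, rows and columns in the same order and colour from 40 to 100%. The square of 5 members at the upper left, Ly6c1, Ly6c2, Ly6a, Ly6i and Ly6g, stands apart from Ly6e, Ly6d and Ly6k, and the pair Ly6c1 and Ly6c2 is the closest at 97.7%.

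How many reads the members could share depends on read length, which the sources used here do not give. Among the distinct stretches of 50 bases in the annotated transcripts, 32.8% of those of Ly6c1 also occurred in another gene, as did 19% for Ly6a, 14.5% for Ly6c2, 4.76% for Ly6i and 0.448% for Ly6g. Over stretches of 150 bases this fell to 2.29% for Ly6c1 and 1.42% for Ly6c2, and no such stretch of Ly6a, Ly6g or Ly6i was shared. Ly6g, with 4 shared stretches of 892 at 50 bases, was therefore the most distinct of the 5 similar members. Ly6e and Ly6d shared none at any of these lengths. Ly6k shared 32.7% of its 50-base stretches, all with the antisense gene Gm17189, which had 0 counts in every library; the strand setting of the counting is not given, so reads of the pair cannot be told apart.

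Library totals lay between 16463752 and 22541410 counts, and the upper limit set by a count of 0, taken as 3 counts, was 0.133 to 0.181 CPM (counts scaled to 1000000 per library; it covers counting error only). Got1 itself had 332, 339 and 300 counts in GOT1-/- replicates 1 to 3, against 3284, 3524 and 2873 counts in WT replicates 1 to 3. It was lower in GOT1-/-, as the labels say, but not absent. It stood at 16, 15 and 17.5 CPM in GOT1-/- and 165.9, 165.2 and 173.5 CPM in WT replicates 1 to 3. The source of the remaining counts was not tested. The share of counts on mitochondrial genes was 1.1 to 1.14% in GOT1-/- and 1.56 to 1.88% in WT libraries. Cd4, a defining T cell marker, stood at 640.7 ± 9.89 CPM in GOT1-/- and 680.7 ± 9.47 CPM in WT cells (SD, n = 3 each).

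The 8 members did not move together. Ly6g and Ly6c1 were lower in GOT1-/- cells, Ly6a, Ly6k and Ly6c2 were higher, Ly6e and Ly6i overlapped between genotypes, and Ly6d was near 0. Across all genes, 12873 passed the filter on low counts and edgeR's quasi-likelihood test called 43.8% of them at an adjusted p under 0.05, with 22.9% higher and 21% lower in GOT1-/- cells. Of the members 7 passed the filter, all but Ly6d, and 3 were called higher and 2 lower, counts from which nothing is read because this contrast chose the family. Ly6c2, among those called higher, would not have passed the filter on the WT libraries alone. The 3 GOT1-/- libraries lay wholly on one side of the 3 WT libraries for 5 members, and for 53.4% of all genes tested; with the trend over gene length removed this held for 3 members. Without WT replicate 1, 3 members were called in place of 5. The median log2 fold change was 0.07 over the 7 members and 0.01 over all genes. The median size of the change, whatever its direction, was 0.74 over the members and 0.27 over all genes. Nothing is read from these medians either, because this contrast chose the family, and the 0.74 is the value of Ly6k, a low-count member.

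**Figure D2:**
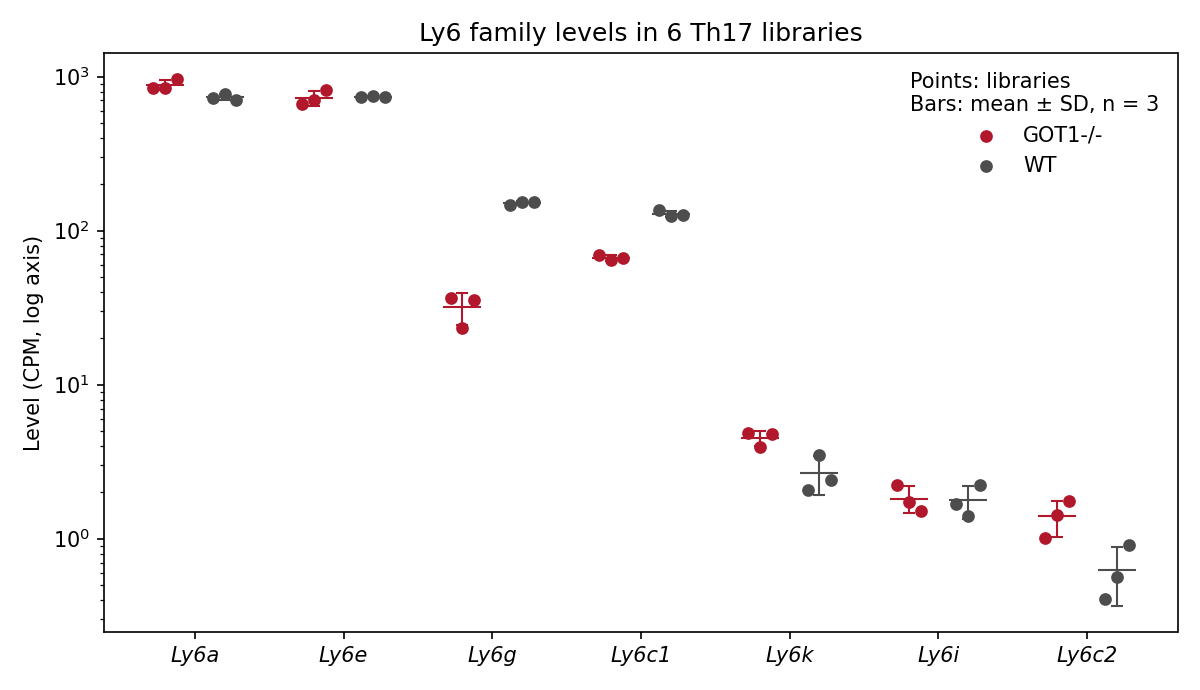
Level of 7 Ly6 members in each library, in CPM on a log axis, with GOT1-/- (red) to the left of WT (grey); points are libraries, and bars are the mean and SD of 3. The GOT1-/- points of Ly6g, at 23.2 to 36.5 CPM, and of Ly6c1, at 64 to 69.4 CPM, lie below every WT point, those of Ly6a, Ly6k and Ly6c2 lie above, and those of Ly6e and Ly6i overlap with WT.

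Ly6g, whose protein is the standard surface marker of mouse neutrophils, had 36.5, 23.2 and 35.7 CPM in GOT1-/- replicates 1 to 3, against 146.6, 154.4 and 153.1 CPM in WT replicates 1 to 3. All GOT1-/- libraries were far below all WT libraries, and GOT1-/- replicate 2 was the lowest. The mean was 31.8 ± 7.45 CPM in GOT1-/- and 151.4 ± 4.21 CPM in WT cells (SD, n = 3 each), 4.78-fold lower in GOT1-/- cells, with a log2 fold change of -2.26 (SE 0.12). Counted from the lowest log2 fold change, it stood at place 12 of 12873 genes. Relative to the mean, the spread between libraries was 23.4% in GOT1-/- and 2.78% in WT cells. In bulk RNA, fewer cells with the transcript and less transcript per cell cannot be told apart.

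Because Ly6g names neutrophils, the other neutrophil genes were looked at beside it. The 14 listed neutrophil markers other than Ly6g summed to 12.8 to 18.1 CPM in GOT1-/- and 18.9 to 20.4 CPM in WT libraries, and most of that sum was the chemokine receptor gene Cxcr2, at 10.3 ± 1.24 CPM in GOT1-/- and 18.1 ± 0.953 CPM in WT cells. Of the 14, 5 passed the filter on low counts. S100a8 and S100a9, high in GOT1-/- libraries, and Lcn2 would not have passed on the WT libraries alone. Itgam would not have passed on the GOT1-/- libraries alone, so all of these are given by their counts. Lcn2 had 18, 14 and 11 counts in GOT1-/- and 5, 7 and 13 counts in WT libraries. Itgam had 20, 12 and 6 counts in GOT1-/- and 11, 21 and 10 counts in WT libraries. Retnlg and Cebpe had 0 counts in every library, and Elane, Mpo, Camp and Csf3r had at most 4 counts in any library. S100a9, a calprotectin subunit, ran against Ly6g: it had 37, 49 and 21 counts in GOT1-/- libraries and 1, 0 and 2 counts in WT libraries. Its partner S100a8 had 27, 28 and 17 counts in GOT1-/- and 2, 1 and 3 counts in WT libraries, and the granule protein gene Ngp had 27, 35 and 7 counts in GOT1-/- and 2, 3 and 2 counts in WT libraries. Ly6g had 523 to 756 counts in GOT1-/- and 2536 to 3294 counts in WT libraries. The part of these genes in the Ly6g result was not tested.

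Ly6c1, which encodes a form of the Ly6C antigen, had 69.4, 64 and 66.1 CPM in GOT1-/- replicates 1 to 3, against 135.8, 124.9 and 126.2 CPM in WT replicates 1 to 3. The genotypes did not overlap, and within each the libraries differed by under 5% of their mean (SD 4.09% in GOT1-/- and 4.61% in WT). The mean was 66.5 ± 2.72 CPM in GOT1-/- and 129 ± 5.95 CPM in WT cells, 1.94-fold lower in GOT1-/- cells, with a log2 fold change of -0.95 (SE 0.07).

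Ly6c2, which encodes the other form of Ly6C and is the one monocytes are known to carry, was near the bottom of the family. It had 21, 32 and 30 counts in GOT1-/- replicates 1 to 3, against 8, 12 and 15 counts in WT replicates 1 to 3. The GOT1-/- libraries were all higher, but the closest pair was 21 against 15 counts. WT replicate 1 was under the 10 counts that the filter asks for, so Ly6c2 would not have passed on the WT libraries alone. The mean was 1.39 ± 0.37 CPM in GOT1-/- and 0.624 ± 0.256 CPM in WT cells, a log2 fold change of 1.17 (SE 0.37). The call was lost in 4 of 6 runs that left out a library, at 1.14 and 0.99 without GOT1-/- replicates 2 and 3 and at 0.93 and 1.11 without WT replicates 1 and 2. Its counts equalled 1.46, 2.21 and 2.65% of those of Ly6c1 in GOT1-/- replicates 1 to 3, against 0.298, 0.45 and 0.718% in WT replicates 1 to 3. Of the 50-base stretches of Ly6c1, 21.5% occur in Ly6c2. Of the 2733 such stretches of Ly6c2, 379 occur in Ly6c1. Counting every other gene, 395 occur elsewhere on either strand, spread over 538 genes that include Ly6c1. The way the counting placed such reads is not given, so Ly6c2 is uncertain.

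Ly6a, the gene of Sca-1, was with Ly6e one of the high members. It had 839, 848.9 and 960.2 CPM in GOT1-/- replicates 1 to 3, against 729.8, 772.7 and 707.8 CPM in WT replicates 1 to 3. Each GOT1-/- library was above each WT library, by a small margin. The mean was 882.7 ± 67.3 CPM in GOT1-/- and 736.8 ± 33 CPM in WT cells, a log2 fold change of 0.26 (SE 0.07). Short genes as a class were higher in GOT1-/- libraries: the 1153 shortest protein-coding genes, 204 to 1770 bases long and including Ly6a, Ly6c1, Ly6g, Ly6i and Ly6k, had a median of 0.29 on the log2 scale. With each library's trend over gene length removed, Ly6a had a log2 fold change of 0.05 and was no longer called, whereas Ly6c1 stood at -1.14 and Ly6g at -2.47.

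Ly6e, an interferon-induced gene that is known to affect the entry of viruses into cells, had 660.8, 706.5 and 816.6 CPM in GOT1-/- replicates 1 to 3, against 737.7, 749.1 and 739.8 CPM in WT replicates 1 to 3. The WT libraries lay within the range of the GOT1-/- libraries. The mean was 728 ± 80.1 CPM in GOT1-/- and 742.2 ± 6.05 CPM in WT cells, a log2 fold change of -0.03 (SE 0.08). Removal of the trend over both length and GC content put it at -0.17 and called it lower.

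Ly6k, known from testis and sperm, had 4.82, 3.94 and 4.79 CPM in GOT1-/- replicates 1 to 3, against 2.07, 3.52 and 2.42 CPM in WT replicates 1 to 3. GOT1-/- libraries were all higher, and WT replicate 2 came nearest to them. The mean was 4.52 ± 0.497 CPM in GOT1-/- and 2.67 ± 0.755 CPM in WT cells, a log2 fold change of 0.74 (SE 0.21). The call was lost without WT replicate 1, at 0.57, and with the trend over length and GC content removed, at 0.5. Ly6i had 2.22, 1.73 and 1.52 CPM in GOT1-/- and 1.67, 1.41 and 2.23 CPM in WT replicates 1 to 3, which overlapped, with a log2 fold change of 0.07 (SE 0.27). Ly6d, a marker of early B-lineage cells, had 0, 2 and 1 counts in GOT1-/- and 1, 8 and 0 counts in WT replicates 1 to 3, and WT replicate 2 was the only library above the limit of 3 counts.

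The summed level of the family overlapped between genotypes, at 1716.8 ± 148.2 CPM in GOT1-/- and 1764.5 ± 38.4 CPM in WT cells. It was 1613.8, 1649.8 and 1886.7 CPM in GOT1-/- replicates 1 to 3, against 1754.1, 1807 and 1732.5 CPM in WT replicates 1 to 3. The log2 ratio of the sum was -0.04, and -0.19 with the trend over gene length removed. The family's make-up differed in raw counts, with no trend over gene length removed. Ly6a took 51.4 ± 0.55% of the family's counts in GOT1-/- and 41.7 ± 0.961% in WT cells. Ly6e took 42.4 ± 1.24% in GOT1-/- and 42.1 ± 0.625% in WT cells. Protein-coding genes of similar length had a median log2 fold change of 0.29 for Ly6a and 0.06 for Ly6e. The part of gene length in these shares was not tested. Ly6g took 1.85 ± 0.428% in GOT1-/- and 8.58 ± 0.243% in WT cells, and Ly6c1 took 3.9 ± 0.399% in GOT1-/- and 7.31 ± 0.415% in WT cells (SD, n = 3 each). The other 4 members together were under 1% in every library.

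**Figure D3:**
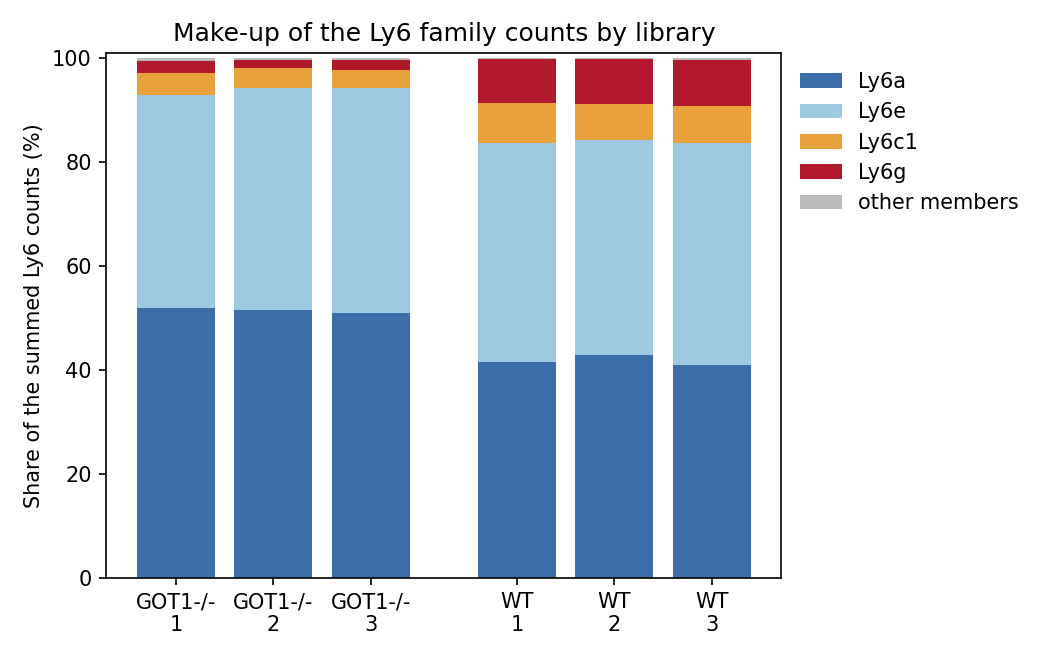
Share of the summed counts of the 8 Ly6 members taken by each, in percent, 1 bar per library with GOT1-/- on the left and WT on the right. Ly6a and Ly6e fill most of every bar, and the bands of Ly6g and Ly6c1 are narrower in each GOT1-/- library, at 1.41 to 2.26% for Ly6g, than in each WT library, at 8.36 to 8.84%.

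Ratios within a library do not depend on its depth. The count of Ly6g per count of Ly6c1 was 0.525, 0.362 and 0.539 in GOT1-/- replicates 1 to 3, against 1.08, 1.24 and 1.21 in WT replicates 1 to 3, so Ly6g was lower by more than Ly6c1 in every GOT1-/- library. When the counts of Ly6a, Ly6c1, Ly6c2, Ly6g and Ly6i were summed into 1 row, so that reads placed on the wrong one of them no longer matter, the log2 fold change was -0.05 (SE 0.07). That row is mostly Ly6a, and summing does not bring back reads that the counting may have dropped for matching several genes.

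To compare levels between members, CPM was divided by the deposited gene length in kilobases (kb). In GOT1-/- cells the order was Ly6a (732.5 ± 55.8 CPM per kb), Ly6e (192.4 ± 21.2), Ly6c1 (39.7 ± 1.62), Ly6g (33.7 ± 7.9), Ly6k (5.45 ± 0.599), Ly6i (1.58 ± 0.311), Ly6c2 (0.509 ± 0.135) and Ly6d. In WT cells it was Ly6a (611.4 ± 27.4 CPM per kb), Ly6e (196.1 ± 1.6), Ly6g (160.7 ± 4.47), Ly6c1 (76.9 ± 3.55), Ly6k (3.22 ± 0.911), Ly6i (1.53 ± 0.366), Ly6c2 (0.228 ± 0.0936) and Ly6d. Ly6g and Ly6c1 were neighbours whose ranges overlapped in GOT1-/- cells (24.6 to 38.7 for Ly6g and 38.2 to 41.4 for Ly6c1). Within each library, Ly6g was 0.644 to 0.96 times Ly6c1 in GOT1-/- and 1.92 to 2.2 times Ly6c1 in WT cells. Ly6c2 and Ly6d overlapped in WT cells. The deposited length of Ly6c2, 2740 bases, exceeds that of Ly6c1, 1677 bases, and lowers its value per kb.

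No protein-coding gene between the outermost members, other than the members, passed the filter on low counts. Within 1 Mb on either side 21 of 46 other protein-coding genes were tested: 7 were higher in GOT1-/- cells, 1 was lower and 13 were not called, at a median log2 fold change of 0.14. That is 8 of 21, against 43.8% of all genes called, so the share is near the background. Them6 was the highest of those called, at 31.4 ± 2.23 CPM in GOT1-/- and 21.2 ± 2.22 CPM in WT cells (log2 fold change 0.57, SE 0.1). Naprt, of nicotinic acid metabolism, was the lower one, at 5.01 ± 0.659 CPM in GOT1-/- and 7.1 ± 1.41 CPM in WT cells (log2 fold change -0.5, SE 0.17). Its annotated end overlaps Eef1d.

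**Figure D4:**
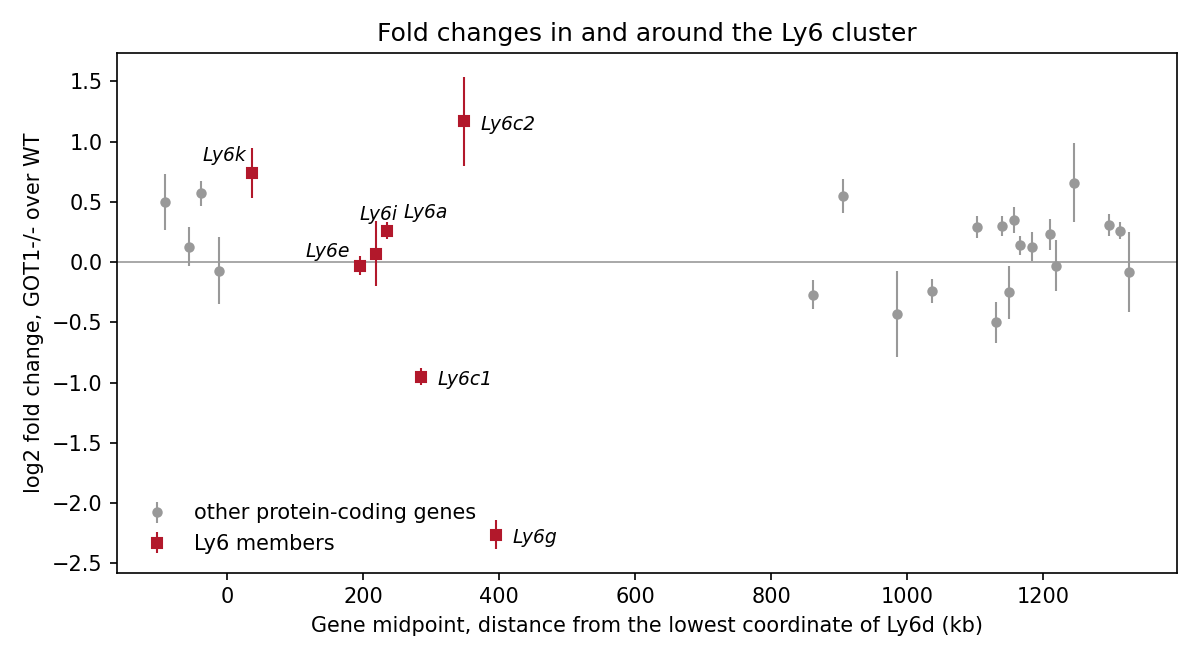
log2 fold change of GOT1-/- over WT (bars, SE) for 7 Ly6 members (red squares) and 21 other protein-coding genes (grey circles), against the midpoint of each gene in kb from the lowest coordinate of Ly6d. Ly6c2 at 1.17 and Ly6g at -2.26 are neighbours with opposite signs, but Ly6c2 rests on low counts and is uncertain. The grey genes lie between -0.5 and 0.66.

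RefSeq promoters, 250 bases before to 50 after a start site, were found for 3 members, Ly6c1, Ly6c2 and Ly6g, with 2 start sites each. The first of each is printed because the log2 fold changes of these neighbours differed in sign. That of Ly6c2 rests on low counts and is uncertain, so a contrast of these promoters by direction is uncertain too. Capitals mark AGGTCA, a half-site that many nuclear receptors are known to bind. The windows on GRCm38.p6 are chr15:75048788-75049087 (minus strand) for Ly6c1, chr15:75111922-75112221 (minus strand) for Ly6c2 and chr15:75155011-75155310 (plus strand) for Ly6g.
Ly6c1: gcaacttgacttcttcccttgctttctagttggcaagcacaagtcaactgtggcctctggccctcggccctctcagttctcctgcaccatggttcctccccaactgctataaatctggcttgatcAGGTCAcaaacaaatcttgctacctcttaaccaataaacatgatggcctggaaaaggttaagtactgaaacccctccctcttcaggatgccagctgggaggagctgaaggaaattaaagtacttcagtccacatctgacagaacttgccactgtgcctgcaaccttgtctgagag
Ly6c2: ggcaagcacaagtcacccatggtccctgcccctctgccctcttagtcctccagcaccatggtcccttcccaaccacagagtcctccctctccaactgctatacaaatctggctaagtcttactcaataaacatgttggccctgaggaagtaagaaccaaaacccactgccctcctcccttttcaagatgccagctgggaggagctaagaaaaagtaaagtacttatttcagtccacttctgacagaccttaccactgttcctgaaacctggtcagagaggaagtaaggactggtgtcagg
Ly6g: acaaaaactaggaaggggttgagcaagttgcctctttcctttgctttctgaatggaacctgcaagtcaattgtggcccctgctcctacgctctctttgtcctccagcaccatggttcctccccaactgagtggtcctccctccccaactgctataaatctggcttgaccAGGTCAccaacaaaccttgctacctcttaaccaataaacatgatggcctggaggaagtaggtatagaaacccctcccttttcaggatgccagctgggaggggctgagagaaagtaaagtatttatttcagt
On either strand, AGGTCA occurred in the printed window of Ly6c1 but not in its second window. It occurred in both overlapping windows of Ly6g and in neither window of Ly6c2. Of 32851 RefSeq promoters of the same length, 16.3% hold it. The interferon response motif, GAAA then any NN then GAAA (3.44% of all promoters), and the interferon-γ-activated motif TTCNNNGAA (8.3%) were in none of the 6 windows. These are matches of letters in a window, and binding was not measured. Along the whole window, with gap bases counted as unlike, Ly6c1 was 62.5% identical to Ly6g and 62.3% to Ly6c2. By the same count Ly6c2 was 48.8% identical to Ly6g. Gap bases numbered 154 for Ly6c2 and Ly6g, 88 for Ly6c1 and Ly6g and 68 for Ly6c1 and Ly6c2. Mismatched bases numbered 39, 41 and 58 for the same pairs. The windows were placed by start site, so these percentages do not measure how far the promoters diverged.

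Of the wider Ly6 and uPAR family, 38 further genes were listed, 33 were in the table, 16 of these had 0 counts in every library and 4 passed the filter. Plaur, the urokinase receptor, was higher in GOT1-/- cells, at 6.09 ± 1.27 CPM against 1.52 ± 0.112 CPM in WT cells (2.00 on the log2 scale with an SE of 0.22, adjusted p = 1.99e-06 by edgeR). The other 3 were not called: Lynx1 had a log2 fold change of -0.07 (SE 0.28), Ly6g5b 0.28 (SE 0.54) and Lypd6b -0.35 (SE 0.43). Of 29 genes that build the GPI anchor or attach it to proteins, 8 were higher, 3 lower and 18 not called, a median log2 fold change of 0.05. The 11 called of 29 are near the 43.8% called over all genes. The enzyme gene Pigk, of the transamidase that attaches the anchor, was at 36.3 ± 3.08 CPM in GOT1-/- and 25.7 ± 1.88 CPM in WT cells (0.50, adjusted p = 0.000356 by edgeR). Pign, which adds a side group to the anchor, was at 37.2 ± 2.24 CPM in GOT1-/- and 53.3 ± 4.51 CPM in WT cells (-0.52, adjusted p = 0.000133 by edgeR). The count of 11 called was 7 without GOT1-/- replicate 2 or 3 or WT replicate 3, and 5 with the trend over gene length removed.

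Since Ly6 genes are known as interferon-induced, 32 interferon-stimulated genes were listed, of which 23 were tested: 6 were higher, 7 lower and 10 not called, at a median log2 fold change of -0.17, where 43.8% of all genes were called. The guanylate-binding protein gene Gbp2 had the smallest adjusted p, at 504.3 ± 30.3 CPM in GOT1-/- and 1185.9 ± 117 CPM in WT cells (-1.23, adjusted p = 7.87e-09 by edgeR). Parp14, an ADP-ribosyltransferase gene, fell by 0.87 on the log2 scale and Gbp3 by 0.85. Among the 6 that rose, named here after their values were seen, were Usp18, a protease gene that removes ISG15 from proteins, at 3.24 ± 0.291 CPM in GOT1-/- and 1.33 ± 0.271 CPM in WT cells (1.26, adjusted p = 0.000406 by edgeR), and Isg15 itself, at 3.29 ± 0.832 CPM in GOT1-/- and 1.56 ± 0.394 CPM in WT cells (1.07). A list of 11 genes of interferon and IL-27 signalling held 9 receptors and kinases and the suppressor genes Socs1 and Socs3. Of the 11, 7 fell, Socs3 among them (-0.50), Socs1 rose (0.26) and 3 were not called. Among all genes tested, 21% were called lower and 22.9% higher. The list was written with earlier results of these data known. Ifngr1, a chain of the IFNγ receptor, was at 122 ± 3.58 CPM in GOT1-/- and 187.5 ± 7.13 CPM in WT cells (-0.62), and Jak2 at 412.1 ± 16.8 CPM in GOT1-/- and 602.4 ± 21.4 CPM in WT cells (-0.55). The culture medium of both genotypes held anti-IFNγ.

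Ly6C is also used to stage T cells, so 14 genes of naive, memory and effector state were listed. Of the 13 tested, 8 fell and 5 were not called by edgeR, with 0 higher. Over all genes tested, 43.8% were called, 22.9% higher and 21% lower in GOT1-/- cells. At an unadjusted p under 0.05 edgeR had 1 of the list higher, DESeq2 called 0 higher and limma-voom 1. Tbx21, the gene of the Th1 factor T-bet, missed the threshold at a log2 fold change of 0.74 (adjusted p = 0.0504 by edgeR). Il7r, the survival receptor of resting T cells, was at 155.9 ± 14.9 CPM in GOT1-/- and 412.9 ± 32.9 CPM in WT cells (-1.40). The transcription factor gene Tcf7 was at 428.7 ± 26.3 CPM in GOT1-/- and 872.2 ± 17.3 CPM in WT cells (-1.02), and S1pr1, a receptor for egress from lymph nodes, fell by 0.91 on the log2 scale. Of 8 Th17 genes, 5 fell, 1 rose and 2 were not called, where 43.8% of all genes were called. Ahr fell by 1.37 on the log2 scale and Il1r1 by 1.75, and Il17a rose by 0.70.

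Markers of other cell types were counted beside the Ly6 values, against 43.8% of all genes called. Of 9 monocyte and macrophage markers 7 were tested, 3 rose and 1 fell, and their summed level was 43.3 to 47.3 CPM in GOT1-/- and 42.8 to 45.5 CPM in WT libraries. Fcgr3, among the 3 that rose, had 34, 30 and 15 counts in GOT1-/- and 13, 12 and 3 counts in WT libraries. It would not have passed the filter on the WT libraries alone. Lyz2 was at 12.6 ± 1.69 CPM in GOT1-/- and 4.02 ± 0.769 CPM in WT cells, and Cd68 at 11.1 ± 1.18 CPM in GOT1-/- and 19.6 ± 2.08 CPM in WT cells. Of 5 dendritic cell markers, 3 were tested, only Itgax rose (log2 fold change 1.53), Siglech had 0 counts in every library, and the sum was 3.91 to 5.02 CPM in GOT1-/- and 2.63 to 3.38 CPM in WT libraries. Of 5 B cell markers 3 were tested and 0 were called by edgeR, DESeq2 or limma-voom (0 also at an unadjusted p under 0.05), with sums of 3.41 to 3.44 CPM in GOT1-/- and 2.35 to 3.23 CPM in WT libraries. Of 6 markers of CD8, NK and γδ T cells, 4 were tested, with 1 higher and 1 lower, and sums of 56.2 to 58.8 CPM in GOT1-/- and 68.9 to 73.8 CPM in WT libraries. Of 7 endothelial and stromal markers, 3 were tested and Pecam1 fell (-0.31), a call lost without WT replicate 2 or GOT1-/- replicate 2; Pdgfra, Krt5 and Krt14 had 0 counts, and the sum was 64.5 to 75.9 CPM in GOT1-/- and 79 to 93.1 CPM in WT libraries. Of 9 T cell markers Cd3d (log2 fold change 0.35) and Trbc1 (0.22) rose, Trac (-0.50) and Cd3e (-0.30) fell and 5 were not called, with sums of 3337.6 to 3585.7 CPM in GOT1-/- and 3475.9 to 3754.3 CPM in WT libraries. The part of these markers in the Ly6 values was not tested.

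For each member the genes with the most similar profile over the 6 libraries were found among 9410 genes with a mean of at least 5 CPM, by the root mean square difference of log2(CPM + 0.5) after centring. Nearest to Ly6g were Serpinb5, a serpin gene (difference 0.138), the dynamin gene Dnm3 (0.152) and the proton pump subunit gene Atp6v0d2 (0.32). Serpinb5 was at 16.6 ± 2.16 CPM in GOT1-/- and 88.4 ± 10.1 CPM in WT cells. Nearest to Ly6c1 were the kinase gene Map3k20 (0.0441), Naa16 (0.0687) and Selp, which encodes P-selectin (0.0692); Selp was at 49.5 ± 4.88 CPM in GOT1-/- and 102.5 ± 4.16 CPM in WT cells. Among the 3 nearest to Ly6a was the helicase gene Ddx41 (0.0231), and nearest to Ly6e was the ribosomal protein gene Rpl6 (0.0213). For the 3 low members the nearest were Gpatch4 to Ly6c2 (0.0446), Tada1 to Ly6i (0.0572) and Rhbdd3 to Ly6k (0.0955), where added 0.5 CPM and counting error shape the profile.

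**Figure D5:**
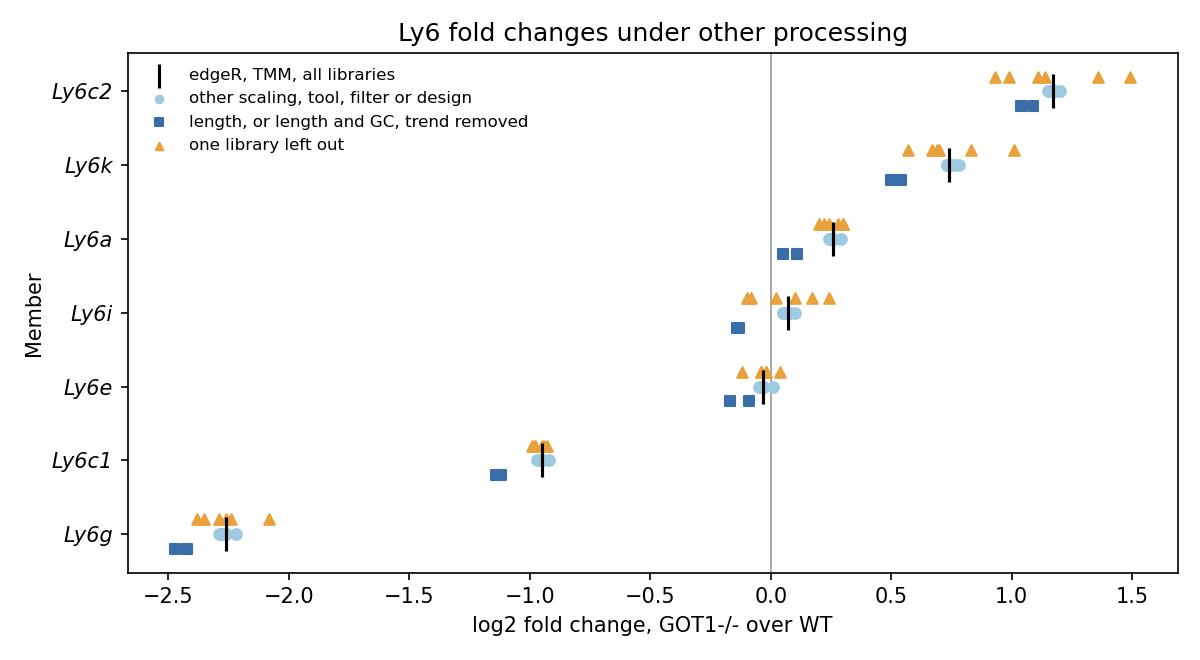
log2 fold change of GOT1-/- over WT for 7 Ly6 members under the processing reported (black bars), other scalings, tools, filters and designs (light circles), removal of trends over length or length and GC content (squares) and with 1 library left out (triangles). Ly6g stays between -2.47 and -2.08 and Ly6c1 between -1.14 and -0.92, whereas Ly6i and Ly6e lie on both sides of 0.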

How the data were processed

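Poly-A RNA of 3 GOT1-/- and 3 WT Th17 libraries was measured. The authors deposited raw counts per gene, not normalized, with symbols, coordinates and gene lengths. STAR and build GRCm38 are named per the submitters' processing notes; their versions, the counting tool, its strand setting and its treatment of reads that match several genes were not stated in any label or header read here. Of the symbols, 27 had been turned into dates and were restored from gene IDs, and of 103 repeated symbols the copy with most counts kept the name.

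The filter on low counts was filterByExpr of edgeR (at least 10 counts, at least 15 in total). The comparison used edgeR 4.0.16 (R 4.3.3) and its two-sided quasi-likelihood F-test on TMM-scaled counts (factors 0.976 to 1.01), with genotype as the only term and Benjamini-Hochberg adjustment over 12873 genes, and a gene was called where the adjusted p was below 0.05. Every adjusted p printed is from this fit, and an SE is the log2 fold change over the square root of F. CPM used TMM-scaled library sizes. Libraries of a genotype differed beyond counting noise (3.76 to 13.7 chi-square units per degree of freedom), so each was kept; floors and totals cover counting error only.

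Stretches shared between genes were exact matches of 50, 100 or 150 bases in GENCODE M21 transcripts, coding sequences were aligned globally, and promoters came from RefSeq (GRCm38.p6). The members, the gene lists and the tests were chosen with earlier results of these data known. Genes were named by rule: all members, Got1, each tested gene of the wider family, up to 4 called members per other list by adjusted p, and the 3 nearest profiles per member; others named were chosen after their values were seen, and some genes the rule takes are not reported here. Alternatives were DESeq2 1.42.0, limma-voom (limma 3.58.1), other scalings, filters and dispersions, a replicate block, removal of a trend over length (splines of 5 degrees of freedom), and each library left out; removal of a trend over length and GC content was added after seeing the data. The procedure was tested on simulated data.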

Additional observations from a re-analysis of the deposited data

How the results depend on the processing

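Values are given for 17 alternatives. As a description, the log2 fold change ranged from -2.47 to -2.08 for Ly6g and from -1.14 to -0.92 for Ly6c1, and Ly6i and Ly6e lay on both sides of 0. Other scalings, filters, DESeq2, limma-voom and a robust dispersion left the same 5 members called. With the trend over gene length removed, members without overlap numbered 3 against 5, Ly6a had a log2 fold change of 0.05, Ly6c1 -1.14, the log2 ratio of the family's summed CPM was -0.19 against -0.04, and 5 GPI genes were called against 11. With the trend over length and GC content removed, chosen after seeing the data, these were 0.11 for Ly6a, -1.12 for Ly6c1, -0.19 for the sum and 5 for GPI genes, and Ly6e stood at -0.17. The cause was not tested. With 1 library left out, the members called ranged from 3 (without WT replicate 1) to 5, Ly6k from 0.57 to 1.01, Ly6c2 from 0.93 to 1.49, GPI genes called from 7 to 11, and endothelial and stromal genes called from 0 to 1. Replicate numbers showed no clear pairing of the samples. Deviations of same-numbered libraries correlated at 0.059, -0.026 and 0.033, and not every library correlated best with its own number. With 3 libraries per genotype this cannot exclude a pairing. With a replicate block, 3005 genes were higher and 2787 lower, against 2944 and 2699 without it; the same 5 members were called, with Ly6g at -2.28. The low counts of Ly6c2, Ly6i, Ly6k and Ly6d, at most 100 in any library, limit what can be said of them.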
